A study of Mus musculus with 52 samples.

Results

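The potassium channel genes of the mouse suprachiasmatic nucleus (SCN), the hypothalamic nuclei that hold the circadian pacemaker, were followed through light pulses in the subjective night and through loss of Npas4. They were taken as every gene of the count tables whose symbol starts with Kcn and another letter, plus Abcc8 and Abcc9, which encode the regulatory subunits of ATP-sensitive channels. Of 96 such genes among 21999, 85 had 10 or more counts in at least 2 libraries, and the other 11 were left out (Kcna10, Kcna7, Kcne1, Kcne3, Kcnj1, Kcnj15, Kcnk15, Kcnk16, Kcnk18, Kcnmb3 and Kcnq1). Grouped by symbol, the 85 comprised 37 voltage-gated subunits (Kv), 13 inward rectifiers (Kir), 2 sulfonylurea receptors, 11 two-pore channels (K2P) and 13 auxiliary subunits. The others were 8 genes of the families named for activation by calcium or sodium (Kcnma, Kcnn, Kcnt and Kcnu) and Kcnrg, a channel regulator. After the filter on low counts, 84 were tested in the light-pulse experiment (Kcne2 was not) and all 85 in the Npas4 experiment.

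Bulk RNA-seq was made from SCN of male mice aged 11 to 12 weeks, and each library pooled 6 pairs of SCN. In the light-pulse experiment wild-type mice stayed in the dark until circadian time (CT) 17, with 4 libraries. Others received light from CT17, with 4 libraries for 0.5 h and 2 each for 1 h, 3 h and 6 h, and 2 further libraries came from mice kept dark until CT23, when the 6 h pulse ended. In the Npas4 experiment Npas4-/- mice, called null here, and wild-type littermates received light for 1 h at CT17 or stayed dark, with 3 libraries in each of the 4 groups. Npas4 encodes a transcription factor induced by neuronal activity. How the null allele was made is not given in the sources used here, and no source says that the libraries of a group are separate experiments, so the p-values rest on a spread that may be partly technical.

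Potassium channels let potassium leave or enter the cell along its gradient and set the resting potential, the shape of the action potential and the rate of firing. SCN neurons fire faster by day than by night, and large-conductance calcium-activated channels, fast delayed rectifiers and A-type channels are known to take part in that rhythm. ATP-sensitive channels join an inward-rectifier pore to a sulfonylurea receptor and open when cellular ATP falls, and glial inward rectifiers take up the potassium that neurons release.

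Libraries held 12477382 to 15369985 counted reads for the 12 light-pulse libraries without the letter s at the end of their title, 27413860 to 30149286 for the 4 with it (replicates 1s and 2s at CT17 dark and at 0.5 h) and 26638939 to 32097975 in the Npas4 experiment. In a principal component analysis of the light-pulse libraries, on the component with 30% of the variance, the 4 libraries with the s and replicate 2 of 0.5 h lay between 10.1 and 35.2, and all others between -19.3 and -1.26. The model therefore held the s as a term. Every 1 h, 3 h and 6 h library belongs to batch 2 of the labels, and the CT17 libraries of that batch are those with the s, so that counts of calls with the batch of the labels as the term are given beside the main ones at 1 h and 3 h, and counts of members called within batch 2 at 1 h, 3 h and CT23. All 10 SCN neuron markers were detected in every group, with summed levels of 882 to 1306 CPM (counts scaled to library depth) in the light-pulse and 1328 to 2726 CPM in the Npas4 libraries. The Npas4 transcript itself had 4.55, 7.63 and 5.19 CPM in the libraries labelled Npas4 null after light and 13.7, 10.7 and 14.0 CPM in wild-type littermates after light. In the dark it had 5.27, 10.1 and 10.4 CPM in the libraries labelled null, against 8.64, 8.20 and 8.34 CPM in wild-type ones, a log2 difference of 0.04 (adjusted p = 0.989). Transcript counts thus did not tell the genotypes apart in the dark. The part of the gene that is deleted is not known here, so this is no check of the labels.

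Levels between genes are compared per length, as RPKM, reads per kilobase of gene scaled to library depth, over the 16 light-pulse libraries. Kcnj10, the main inward rectifier of astrocytes, stood far above every other member with a mean of 176.7 RPKM (range 160.0 to 198.0). Its Npas4-experiment level was 106.4 RPKM (97.2 to 116.5), again the highest. Kcnj16, its partner in glial heteromeric channels, followed within the Kir family at 26.1 RPKM, and Kcnj3 and Kcnj9, subunits of G-protein-gated channels, had 14.9 and 11.2 RPKM. The other subunits of that kind, Kcnj5 and Kcnj6, had 4.10 and 2.52 RPKM. Among the genes of ATP-sensitive channels, Kcnj11 had 3.27 RPKM beside 2.09 RPKM of its receptor Abcc8, and the vascular pair Kcnj8 and Abcc9 had 0.934 and 0.986 RPKM.

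Among Kv genes 10 of 37 reached 10 RPKM and 6 lay under 1 RPKM, with a family median of 3.42 RPKM. Kcnq3, a subunit of the M-current that damps repetitive firing, had 9.25 RPKM. Kcna2, a low-threshold axonal channel, had 22.0 RPKM. The A-type genes Kcnd2 and Kcnd3 had 19.996 and 17.3 RPKM and Kcnd1 had 2.02 RPKM, while the fast delayed rectifiers Kcnc1 and Kcnc2 had 14.8 and 14.9 RPKM. Kcnv2, a silent modifier subunit, was the lowest member of all at 0.103 RPKM.

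Of the 11 K2P genes, which carry the background leak, Kcnk1 (19.6 RPKM), Kcnk2 (11.4 RPKM) and Kcnk9 (10.2 RPKM) exceeded 10 RPKM and 5 were under 1 RPKM. Kcnma1, the pore of the large-conductance BK channel, had 12.8 RPKM and its brain beta subunit Kcnmb4 had 5.30 RPKM. Kcnt1, a sodium-activated channel, had 12.3 RPKM and the small-conductance channel Kcnn3 had 8.36 RPKM. The auxiliary subunits had the highest family median, 5.30 RPKM, led by the A-type channel partners Kcnip4 (26.9 RPKM) and Kcnip3 (20.9 RPKM). In all, 22 members reached 10 RPKM in the light-pulse and 23 in the Npas4 experiment, 19 of them in both. Kcnk12, a K2P subunit of the THIK group, had 3.15 RPKM in the Npas4 and 0.608 RPKM in the light-pulse experiment, a ratio of 5.18, the highest among the members. The 2 tables were made separately, and this ratio was not tested.

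**Figure D1:**
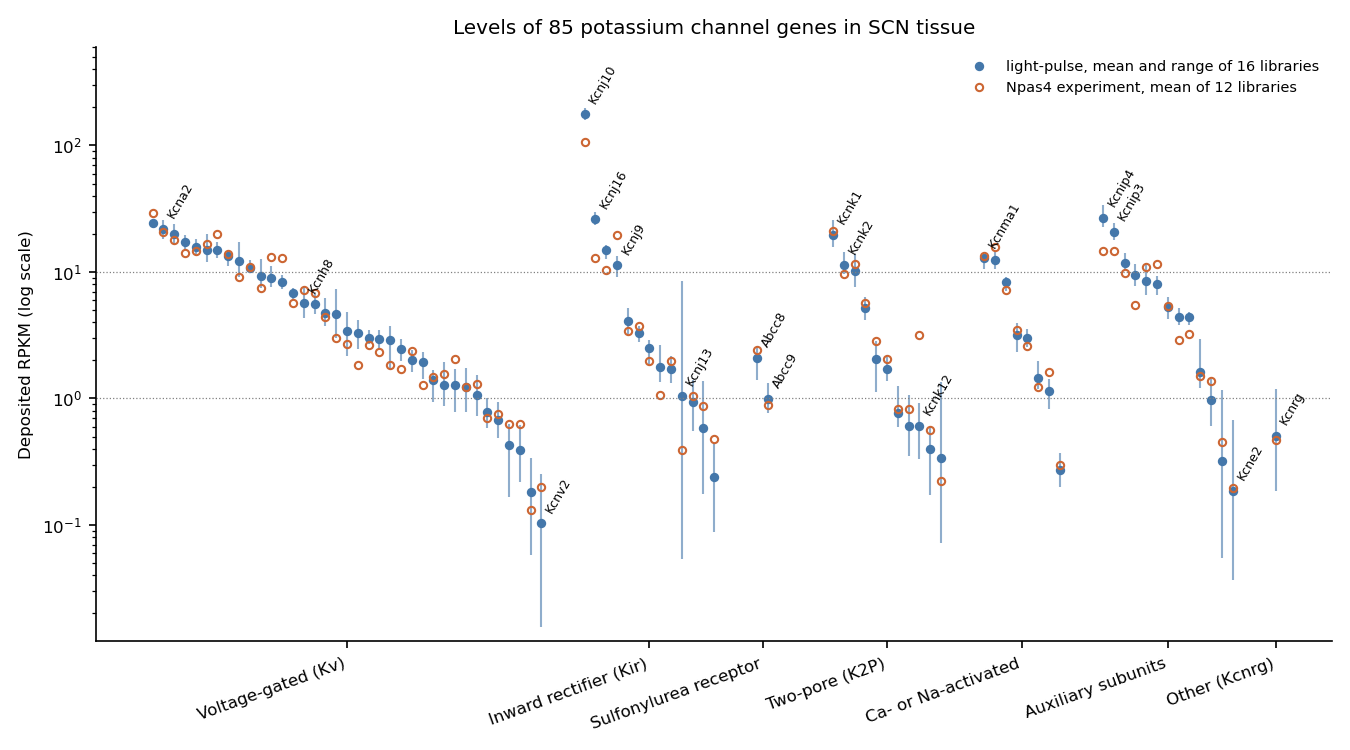
Mean deposited RPKM of each of the 85 genes on a log scale, by family and ordered by level: filled points are means over 16 light-pulse libraries with lines for their range, open points means over 12 Npas4 libraries. Kcnj10 stands alone at 176.7 RPKM, and most Kv genes lie between the dotted lines at 1 and 10 RPKM.

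The first question was how light changes these genes. Few changed at any time. None was called at an adjusted p under 0.05 (edgeR's quasi-likelihood test, Benjamini-Hochberg adjustment over all genes) after 0.5 h, where 0.468% of all 14524 genes tested were called, and none after 1 h, where 1.27% were. After 3 h 1 of 84 members was called, Abcc8, where 3.24% of all genes were, and after 6 h, relative to dark at CT23, 2 were called, Kcnh8 and Abcc8, where 1.41% of all genes were. These shares of 0, 0, 1.19% and 2.38% of the members lay near or below those of all genes. At an unadjusted p under 0.05 there were 3, 3, 10 and 13 of the 84 members at the 4 times. The shares of all genes were 4.66%, 8.46%, 15.5% and 9.45%. The share of the members was thus above that of all genes at 6 h and below it at the other times.

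Abcc8 encodes SUR1, the sulfonylurea receptor of neuronal and beta-cell ATP-sensitive channels (mm10 chr7:46104523-46180039). In CT17 dark it had 19.0 and 16.6 CPM in replicates 1 and 2 and 19.96 and 18.8 CPM in 1s and 2s. After 0.5 h of light it had 19.5, 16.1, 19.6 and 17.03 CPM in the same order, and after 1 h 20.8 and 18.8 CPM. It then had 13.0 and 11.8 CPM after 3 h and 12.09 and 12.05 CPM after 6 h, against 17.9 and 16.8 CPM in CT23 dark. The 4 libraries of 3 h and 6 h were thus below all other light-pulse libraries, with no overlap with either dark group.

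Abcc8 fell by 0.54 ± 0.11 on the log2 scale after 3 h against CT17 dark (estimate ± SE; 12.4 ± 0.888 CPM, n = 2, and 18.6 ± 1.41 CPM, n = 4; adjusted p = 0.0134, edgeR) and by 0.52 ± 0.12 after 6 h against CT23 dark (adjusted p = 0.045, edgeR). It was also the 1 member called between 3 h and 1 h of light, where it fell by 0.67 ± 0.12 (adjusted p = 0.00791, edgeR; 1.53% of all genes called). The 3 h call rests on few libraries: without CT17 replicate 1 or either 3 h library the adjusted p was 0.0649, 0.0534 and 0.174, and without the libraries with the s it was 0.0861. The 6 h call was lost when any of its 4 libraries was left out, and 4 of 9 other settings kept it. It was lost with the batch of the labels (adjusted p = 0.0649, edgeR) and with a term for batch 1, batch 2 and batch 2 with the s. It was also lost without the libraries with the s, with no filter on low counts and within batch 2. The call between 3 h and 1 h was lost without 1 h replicate 1 or 3 h replicate 2. No dark library was taken when the 3 h pulse ended, so light and 3 h of circadian time cannot be told apart in that comparison. In bulk tissue, fewer cells of a type and less RNA per cell cannot be told apart either. Markers of glia moved at the same time: Aqp4, 1 of 8 astrocyte markers, fell by 0.35 and P2ry12, 1 of 6 microglia markers, fell by 0.43 at 3 h, while the summed astrocyte markers spanned 4442 to 5007 CPM at 3 h and 3757 to 5643 CPM at CT17. At 6 h the astrocyte gene Gfap rose by 0.66 and Gal, 1 of 10 markers of neighbouring hypothalamus, by 0.91. Of 10 SCN neuron markers, Prok2, Rora and Rorb rose and Lhx1 fell at 3 h, and all but Rorb were called again at 6 h in the same directions. The part of these markers in the Abcc8 result was not tested.

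Kcnj11, the Kir pore that assembles with SUR1, lies 3.57 kb from Abcc8 on the same chromosome (chr7:46097123-46100952). It had 11.8 and 10.7 CPM after 3 h, against 12.3, 13.7, 12.7 and 10.8 CPM in CT17 dark, and these values overlapped. After 6 h it had 10.5 and 11.4 CPM, against 13.4 and 14.2 CPM in CT23 dark, a log2 difference of -0.33 ± 0.13, outside the threshold (adjusted p = 0.378, edgeR). Abcc9 and Kcnj8 did not pass at any time.

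**Figure D2:**
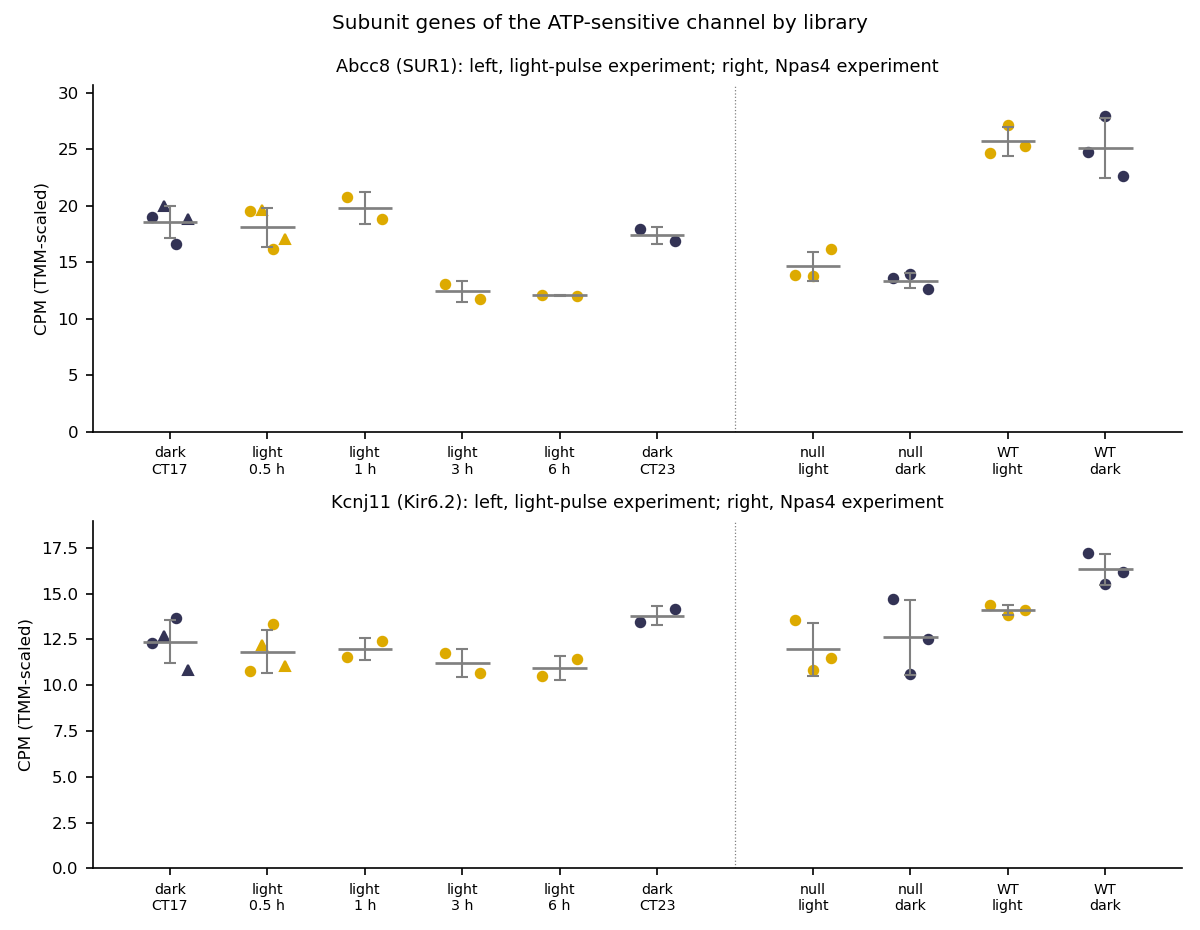
CPM of Abcc8 (top) and Kcnj11 (bottom) in each of the 28 libraries, with light-pulse groups left and Npas4 groups right of the dotted line; triangles are libraries with the s, grey lines and bars the mean ± SD. Abcc8 lies between 11.8 and 13.0 CPM after 3 h and 6 h of light, and between 12.6 and 16.1 CPM in the libraries labelled Npas4 null, all of them below the wild-type littermates.

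Kcnh8, a Kv subunit of the Elk group (chr17:52602709-52979194), had 32.3 and 36.1 CPM after 6 h of light, against 22.4 and 20.5 CPM in CT23 dark. Both 6 h libraries were above every other light-pulse library, the next being 28.2 CPM at 0.5 h. It rose by 0.67 ± 0.13 on the log2 scale, 1.6-fold (adjusted p = 0.0132, edgeR), and within batch 2 of the labels, which leaves 1 CT23 library, it rose by 0.74 (adjusted p = 0.00916, edgeR). With a term for 3 kinds of library (batch 1, batch 2, batch 2 with the s) its log2 change was 0.74 as well and did not pass (adjusted p = 0.0535, edgeR). It did not pass without either CT23 library (adjusted p = 0.0513 and 0.198) or without 6 h replicate 2 (adjusted p = 0.119). In the Npas4 experiment Kcnh8 ranged from 26.0 to 39.7 CPM in wild-type dark libraries alone, a spread as wide as the difference seen at 6 h.

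Kcnj9 encodes a G-protein-gated Kir subunit (chr1:172320508-172329322) and lies 11.9 kb from Kcnj10. After 3 h of light it had 39.7 and 40.4 CPM, against 49.4, 47.0, 53.2 and 51.4 CPM in CT17 dark, with no overlap, and a log2 change of -0.29 ± 0.077 just outside the threshold (adjusted p = 0.051, edgeR). After 6 h it had 42.3 and 48.9 CPM, against 57.8 and 53.1 CPM in CT23 dark, again without overlap (log2 change -0.28 ± 0.080, adjusted p = 0.135, edgeR). Kcnf1, a silent Kv modifier subunit, had 28.9 and 30.5 CPM after 3 h, against 19.3, 23.4, 18.025 and 17.6 CPM in CT17 dark (log2 change 0.49 ± 0.14, adjusted p = 0.0791, edgeR). After 6 h, with 19.2 and 27.04 CPM, its libraries lay on both sides of the CT23 values of 21.1 and 23.01 CPM. Other members at low unadjusted p did not pass either, among them Kcnk4 at 3 h (log2 change 0.98, adjusted p = 0.0895, edgeR) and the sodium-activated Kcnt2 at 6 h (log2 change -0.34, adjusted p = 0.115, edgeR).

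**Figure D3:**
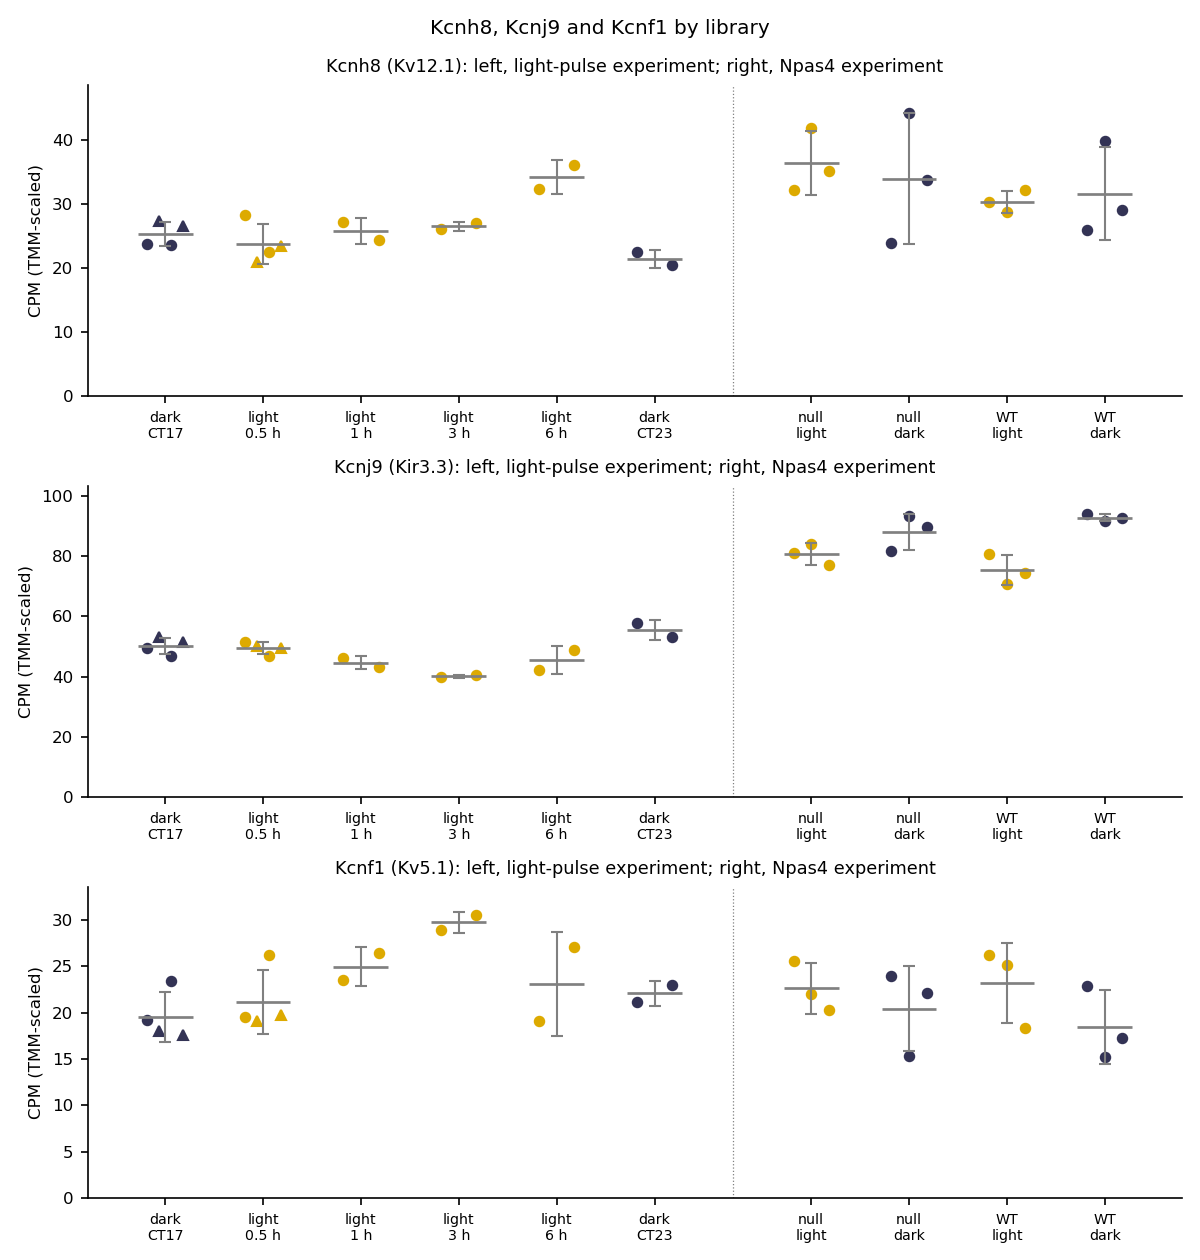
CPM of Kcnh8, Kcnj9 and Kcnf1 in the 28 libraries, drawn as in the plot of the ATP-sensitive channel genes (triangles, libraries with the s; grey, mean ± SD). Kcnh8 is highest among light-pulse groups at 6 h (32.3 and 36.1 CPM), and Kcnj9 is lowest at 3 h (39.7 and 40.4 CPM).

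The counts of calls at 1 h and 3 h depended on the term for the libraries. With the batch of the labels, 5 members were called at 1 h (Kcna1, Kcna2, Kcnh3 and Kcnq3 lower, Kcns2 higher), against 8.39% of all genes, and 10 at 3 h, against 11.5% of all genes. The 10 were Abcc8, Kcna1, Kcna2, Kcnj9, Kcnq3 and Kcns3, lower, and Kcnf1, Kcnk3, Kcnk9 and Kcns2, higher. Within batch 2, where CT17 is represented by the libraries with the s alone, 15 members were called at 1 h (17% of all genes) and 17 at 3 h (19.2% of all genes). Of 10 oligodendrocyte markers, 10 were called lower at 1 h and 6 at 3 h with the batch of the labels. With the s as the term none was called, and their median log2 change was -0.52 at 1 h and -0.22 at 3 h. Their summed level was 4262 to 6259 CPM at 1 h, 6187 to 6774 CPM at 3 h and 7833 to 9192 CPM at CT17. It was thus below every CT17 library at both times, whatever the term. The CT23 dark libraries, with 6297 to 7330 CPM and no light, were also below every CT17 library, as was 6 h with 5189 to 6839 CPM. At 0.5 h the sum spanned 5547 to 9208 CPM. With the batch of the labels 3 of 10 markers of neighbouring hypothalamus were higher (Crh, Gal and Trh) and 3 lower (Nr5a1, Pomc and Qrfp) at both times. None of these was called with the s as the term. Their summed level was 472 to 473 CPM at 1 h, above all CT17 libraries, 399.8 to 477 CPM at 3 h, overlapping them, and 273 to 465 CPM at CT17. Of 6 microglia markers 2 were lower at both times, and of 6 endothelial markers 1 was. Of 8 astrocyte markers 1 was higher and 1 lower at 1 h and none at 3 h. Of 10 SCN neuron markers 2 were higher and 1 lower at 1 h, and 3 higher and 2 lower at 3 h. The part of these markers in the calls was not tested. Kcna1 and Kcna2, subunits of juxtaparanodal channels of myelinated axons, were 2 of the 4 lower members at 1 h. Kcna2 had 234 and 222 CPM at 1 h and 263 and 233 CPM in the CT17 libraries without the s, which overlapped, and 294 and 298 CPM in those with it. Within batch 2 Abcc8 fell by 0.65 at 3 h (adjusted p = 0.00208, edgeR), and with the term for 3 kinds of library its log2 change was -0.45 (adjusted p = 0.497).

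Intervals of the change are given with the s as the term. The 95% interval lay within 0.5 on the log2 scale for 66 of 84 members at 0.5 h, 50 at 1 h, 47 at 3 h and 44 at 6 h. A called member can lie within that bound, as Kcnj9 did in wild-type littermates of the Npas4 experiment (-0.44 to -0.16). The share of all genes within the bound is not given here. Nor are intervals with the batch of the labels, with which 5 members were called at 1 h and 10 at 3 h. For Kcnma1 the interval was -0.18 to 0.17 at 0.5 h, -0.16 to 0.32 at 1 h, -0.08 to 0.40 at 3 h and -0.30 to 0.20 at 6 h. Kcnc2 had 114 and 128 CPM after 6 h, against 90.7 and 103 CPM in CT23 dark, a log2 difference of 0.32 ± 0.099, outside the threshold (adjusted p = 0.197, edgeR). The median log2 change at 6 h was -0.0997 over the members and -0.00145 over all genes, and its size without sign was 0.15 over the members and 0.09 over all genes. The gap was smaller earlier. At 0.5 h, 1 h and 3 h the median was -0.016, -0.028 and -0.023 over the members and -0.006, -0.005 and -0.016 over all genes. Without sign it was 0.06, 0.10 and 0.14 over the members and 0.05, 0.08 and 0.11 over all genes.

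The second comparison set dark at CT23 against dark at CT17, later against earlier subjective night. No member was called (0.269% of all genes), and 8 had an unadjusted p under 0.05 (10.2% of all genes). The lowest was that of Kcnip3, a calcium-binding A-type channel partner, with 86.4 and 80.0 CPM at CT23 and 71.7, 72.1, 71.2 and 68.7 CPM at CT17, which did not overlap (log2 change 0.26 ± 0.073, adjusted p = 0.233, edgeR). Kcnma1 had 97.4 and 97.9 CPM at CT23, above all of 82.6, 74.0, 89.8 and 93.4 CPM at CT17 (log2 change 0.25 ± 0.11, adjusted p = 0.46, edgeR). Kcnc1 had 153 and 152 CPM at CT23 and 131, 133, 148 and 147 CPM at CT17 (log2 change 0.21, adjusted p = 0.427, edgeR). In all 3 genes both CT23 libraries exceeded every CT17 library. Within batch 2, with 1 CT23 library against the CT17 libraries with the s, 9 members were called (11.7% of all genes), and within batch 1 none (0.00689% of all genes).

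The Npas4 experiment asked whether these genes depend on Npas4 in the dark or in their response to light. Abcc8 was the 1 member called between genotypes, and it was called in both lighting conditions. In the dark it had 13.6, 13.9 and 12.6 CPM in the libraries labelled Npas4 null, against 24.7, 27.9 and 22.6 CPM in wild-type littermates. After 1 h of light it had 13.9, 13.8 and 16.1 CPM in the libraries labelled null, against 24.7, 27.2 and 25.2 CPM in wild-type ones. Every library labelled null was below every wild-type library.

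Abcc8 fell by 0.91 ± 0.09 on the log2 scale in the libraries labelled null in the dark, to 0.533 times the wild-type level (95% interval -1.10 to -0.71; adjusted p = 0.000335, edgeR; 0.753% of all genes called). After light it fell by 0.81 ± 0.09 (adjusted p = 0.000991, edgeR; 0.467% of all genes called). It kept its call without any 1 library, with an adjusted p of at most 0.00368 in the dark and 0.00905 after light. Same-numbered null and wild-type libraries deviated together in the dark, and with the replicate number as a block 4 members were called there (3.09% of all genes), all lower: Abcc8, Kcnj11 (log2 change -0.38, adjusted p = 0.022), Kcnd3 (-0.19, adjusted p = 0.0265) and the small-conductance channel Kcnn3 (-0.17, adjusted p = 0.032). Kcnj11 had 14.7, 10.6 and 12.5 CPM in the dark in the libraries labelled null, against 17.2, 15.5 and 16.2 CPM in wild-type ones, without overlap. Without the block Kcnj11 did not pass (log2 change -0.37 ± 0.11, adjusted p = 0.258, edgeR), nor did it after light (-0.24 ± 0.11, adjusted p = 0.859, edgeR). The vascular receptor Abcc9 had log2 changes of -0.25 in the dark and -0.00 after light and did not pass in either.

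The next member by p was Kcnj4, a strong inward rectifier, with 1.51, 1.48 and 1.09 CPM in the dark in the libraries labelled null, against 2.23, 2.36 and 1.94 CPM in wild-type ones. After light it had 1.83, 1.29 and 1.43 CPM in the libraries labelled null, against 2.46, 2.27 and 2.38 CPM in wild-type ones. Neither comparison overlapped, and neither passed (log2 changes -0.68, adjusted p = 0.181, and -0.64, adjusted p = 0.276, edgeR). In all, 10 members in the dark (9.19% of all genes) and 3 after light (5.91% of all genes) had an unadjusted p under 0.05.

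Markers of SCN neurons moved with genotype too. Of 10, 2 rose in the libraries labelled null, the neuropeptide genes Nms (by 1.47 in the dark and 1.49 after light) and Prok2 (by 3.34 and 1.48). The summed level of the 10 markers was 1776 to 2726 CPM in null and 1328 to 1931 CPM in wild-type libraries in the dark, and 2178 to 2549 CPM in null and 1593 to 2133 CPM in wild-type libraries after light. No marker of oligodendrocytes, astrocytes, microglia, endothelium, pericytes, meninges or neighbouring hypothalamus was called between genotypes. The part of the SCN marker difference in the Abcc8 result was not tested.

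After 1 h of light 1 member was called in wild-type littermates, Kcnj9 (2.57% of all 15001 genes tested), and none in the libraries labelled null (1.56% of all genes), where 3 had an unadjusted p under 0.05 (7.93% of all genes). Kcnj9 had 80.7, 70.9 and 74.4 CPM after light in wild-type littermates, against 94.0, 91.6 and 92.6 CPM in the dark, without overlap. In the libraries labelled null it had 81.2, 84.0 and 76.9 CPM after light, against 81.5, 93.1 and 89.6 CPM in the dark, with overlap. The log2 change was -0.30 ± 0.065 in wild-type littermates (adjusted p = 0.0248, edgeR) and -0.13 ± 0.065 in the libraries labelled null (adjusted p = 0.723, edgeR).

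The difference between these responses, null minus wild type, was 0.17 ± 0.091 for Kcnj9 (95% interval -0.03 to 0.37, adjusted p = 1, edgeR), so the responses were not shown to differ. No member was called for that difference (0.0133% of all genes, 2 genes), and none had an unadjusted p under 0.05 (2.28% of all genes). DESeq2 called 0 members for that difference as well, and 0 for light in the null, at 0.5 h, at 1 h and between CT23 and CT17 dark. For Abcc8 the difference of the responses was 0.09 ± 0.13 (-0.18 to 0.37). The Kcnj9 call in wild-type littermates was lost without wild-type dark replicate 1, 2 or 3 (adjusted p = 0.109, 0.0543 and 0.0957) and without wild-type light replicate 2 or 3 (adjusted p = 0.147 and 0.119). Same-numbered light and dark libraries deviated together in wild-type littermates, and with the replicate number as a block 2 members were called (5.03% of all genes), Kcnj9 (adjusted p = 0.0086) and Kcne4, an inhibitory auxiliary subunit (log2 change 1.21 ± 0.26, adjusted p = 0.0166). Kcne4 had 2.29, 1.05 and 1.89 CPM after light, against 1.35, 0.525 and 0.435 CPM in the dark, with overlap, and did not pass without the block (adjusted p = 0.257, edgeR).

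Light of 1 h was thus measured in 2 experiments that share no library. Kcnj9 changed by -0.14 ± 0.076 at 1 h in the light-pulse experiment (46.2 and 43.2 CPM in light, against 49.4, 47.0, 53.2 and 51.4 CPM in CT17 dark; adjusted p = 0.712, edgeR). No member was called in both. Of 84 members tested in both, 41 had the same sign of change.

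Genes that act with these channels were described in the same way. Of 18 channel partners and scaffolds tested, 1 was called with the s as the term, Kctd8, an auxiliary subunit of GABA-B receptors, whose downstream effectors include G-protein-gated Kir channels. It rose by 0.63 ± 0.098 after 3 h (adjusted p = 0.00139, edgeR) and by 0.88 ± 0.11 after 6 h (adjusted p = 0.000298, edgeR), and by 0.63 between 3 h and 1 h, and was not called in any comparison of the Npas4 experiment. With the batch of the labels 1 partner was higher at 1 h, Cntnap2, and 3 were at 3 h, Cntnap2, Dlg2 and Kctd8, where 8.39% and 11.5% of all genes were called. Of 10 genes of potassium transport, the sodium pump subunits and cation-chloride cotransporters, 1 was called, the potassium-chloride cotransporter Slc12a7, which rose by 0.81 ± 0.12 after 6 h (adjusted p = 0.00213, edgeR). With the batch of the labels it was also higher at 3 h, and the sodium pump subunit Atp1b2 was lower at 1 h. By a rule on the 1 h comparison, the genes whose 6 light-pulse group means of log2 CPM were most like those of Kcnh3, the member with the lowest p there, were Fam206a (Pearson r = 0.992), Kctd17 (0.990) and Orc6 (0.985). These were picked as the highest r among all genes outside the members, over 6 values each, so high r comes with the choice. They are no evidence of a shared role. The means spanned -0.13 to 1.01 for Kcnh3 and 5.19 to 5.43 for Fam206a. Kcnh3 was not called and had 0.608 and 1.05 CPM at 1 h, against 1.20 to 2.21 CPM at CT17.

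Several of the lowest members followed single libraries. Kcnj13, an inward rectifier known from choroid plexus and other epithelia, had 10.8 CPM in replicate 2 and 3.12 CPM in replicate 2s at 0.5 h of light, against 3.19 CPM in replicate 2s of CT17 dark, and at most 0.556 CPM in every other light-pulse library. In the Npas4 experiment it had 3.03 CPM in dark replicate 1 of the libraries labelled null and at most 0.674 CPM elsewhere. Replicate 2 of 0.5 h was also the highest of the 28 libraries for Kcne2 (1.19 CPM), Kcnk5 (4.56 CPM) and Kcne4 (3.09 CPM). Its 6 meningeal fibroblast markers summed to 778 CPM. The same sum was 377 CPM in replicate 2s of 0.5 h, 272 CPM in replicate 2s of CT17, 216 CPM in dark null replicate 1, and 56.9 to 106 CPM in the other libraries. Ttr, a choroid plexus gene named here after its values were seen, had 105 CPM in replicate 2 of 0.5 h and 91.5 CPM in dark null replicate 1, but also 84.5 CPM in wild-type light replicate 1 and 59.95 CPM in wild-type dark replicate 1, where the meningeal sums were 72.9 and 79.1 CPM. In replicates 2s of 0.5 h and of CT17 it had 16.9 and 29.1 CPM. The log2 change of Kcnj13 was 1.53 at 0.5 h (adjusted p = 1, edgeR) and -2.86 in light against dark in the libraries labelled null (adjusted p = 0.459, edgeR). The part of these tissues in the values was not tested.

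**Figure D4:**
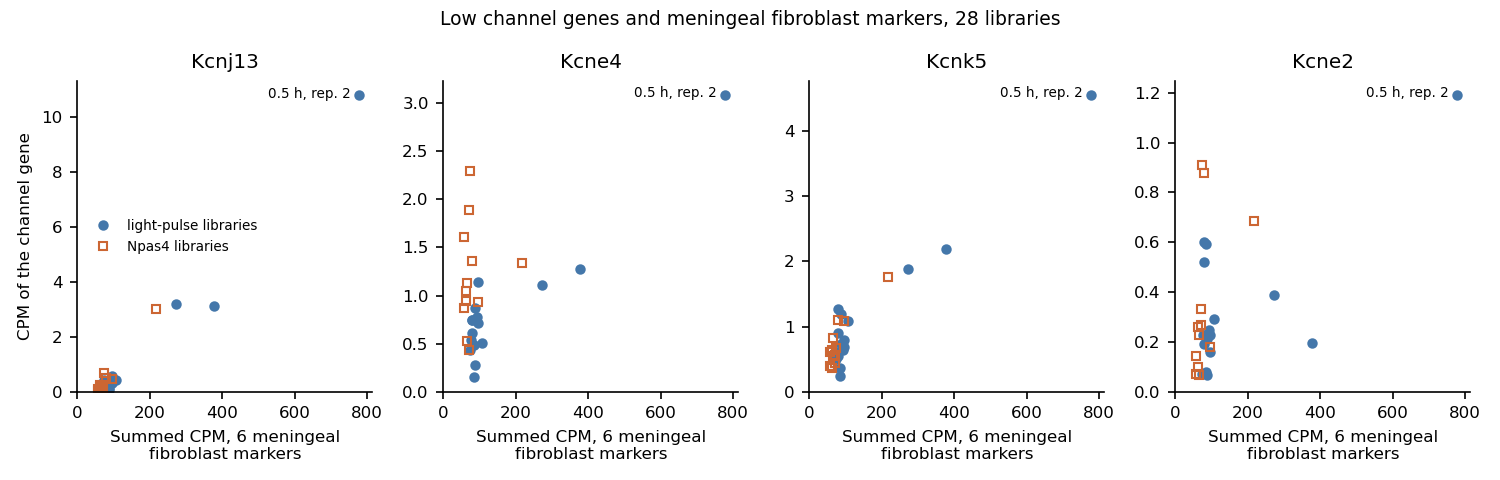
CPM of Kcnj13, Kcne4, Kcnk5 and Kcne2 against the summed CPM of 6 meningeal fibroblast markers, 1 point per library (circles, 16 light-pulse libraries; squares, 12 Npas4 libraries). Replicate 2 of 0.5 h, with a sum of 778 CPM, is the highest library in all 4 panels.

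ChIP-seq peak lists, 1 per mark and lighting condition with 2 SCN pairs each, showed where these genes carried H3K27ac, found at active enhancers and promoters, and H3K4me3, found at promoters. With 1 library per list there is no test, and folds are the authors' enrichment values. Within 5 kb of the gene, 48 of 85 members had an H3K27ac peak after 1 h of light (56.5%, against 54.7% of all genes) and 53 in the dark (62.4%, against 55.5%). H3K4me3 peaks were found at 77 members after light and at 77 in the dark (90.6% each, against 70.7% and 72.1% of all genes). All genes here are the 20491 with coordinates, without the count filter that the members passed. The part of that filter and of gene length in these shares was not tested. Kcnj10 had 16 H3K27ac peaks after light and 17 in the dark, and Kcnma1 had 19 after light and 9 in the dark.

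The 3 called members carried both marks, with 1 exception. Abcc8 had no H3K27ac peak in the light list and 2 in the dark list, of fold 5.537 within the gene (chr7:46154813-46155086) and 4.019 within the neighbouring Kcnj11 (chr7:46100490-46100724). Their -log10 q was 6.446 and 3.025, in a list whose lowest value is 2.029. Peaks in 1 list alone were common, as 65.1% of all light and 67.4% of all dark H3K27ac peaks overlapped the other list. Of the peaks at members, 61.7% and 54.3% did. The H3K4me3 peak over the higher-numbered end of Abcc8 had a fold of 16.34 after light and 18 in the dark. Kcnj9 had 2 H3K27ac peaks after light, the stronger of fold 8.199, and 4 in the dark, the strongest of fold 9.295. At Kcnh8, H3K27ac folds reached 4.53 after light and 5.852 in the dark.

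RefSeq promoters (GRCm38.p6, the same build as mm10, 250 bases before to 50 after a start) were matched for 61 of 85 genes, with 85 promoters in all. They held a median of 8 CG pairs in the 250 bases and 59.2% G and C, against 6 and 52.4% over all 32851 promoters. Those 32851 were not filtered on counts, as the members were. The upstream 250 bases of the called genes with an entry are printed to show how unlike they are: Kcnj9 has 5 CG pairs (capitals) and 52% G and C, and Kcnh8 has 20 CG pairs and 68.4% G and C. Kcnj9 is read on the minus strand from chr1:172329323-172329572 and Kcnh8 on the plus strand from chr17:52602459-52602708.
Kcnj9: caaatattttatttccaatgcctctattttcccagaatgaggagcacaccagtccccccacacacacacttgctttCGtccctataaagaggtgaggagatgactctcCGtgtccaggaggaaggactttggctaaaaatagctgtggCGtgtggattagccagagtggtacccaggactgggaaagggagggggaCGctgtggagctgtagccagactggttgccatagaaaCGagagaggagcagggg
Kcnh8: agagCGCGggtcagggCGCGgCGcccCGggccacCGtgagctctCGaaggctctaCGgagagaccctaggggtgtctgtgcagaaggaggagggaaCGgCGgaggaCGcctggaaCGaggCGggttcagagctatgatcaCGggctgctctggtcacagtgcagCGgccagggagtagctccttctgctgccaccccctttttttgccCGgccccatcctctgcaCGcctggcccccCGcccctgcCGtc
Both promoters lay in an H3K4me3 peak in both conditions, of fold 24.1 after light and 30.72 in the dark at Kcnj9 and of fold 25.88 after light and 33.88 in the dark at Kcnh8. The Kcnj9 promoter overlapped H3K27ac peaks in both conditions. In the light list only its ends did, between a peak ending at chr1:172329301 and another starting at chr1:172329556. In the dark list the peak at chr1:172329386-172329916 covered more of it. The Kcnh8 promoter lay in an H3K27ac peak in the dark list alone, and 67.4% of all H3K27ac peaks of that list overlapped the light list.

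Motifs were searched on both strands of the 300 bases, and none of them contains another. The cAMP response element TGACGTCA was found in 0 of 85 member promoters and 1.79% of all. The AP-1 motif TGANTCA was in 3.53% and 7.81%, the E-box CACGTG in 8.24% and 7.15%, the bHLH-PAS core TCGTG in 14.1% and 16%, and the EGR motif GCGNGGGCG in 4.71% and 5.55%. The windows of Kcnj9 and Kcnh8 held none of them. These are matches of letters and no test was made.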

How the data were processed

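Bulk mRNA libraries were made with a Dynabead kit and the TruSeq procedure, per the labels' protocols. For 28 libraries the authors deposited raw counts, whole numbers by gene symbol, and RPKM values. Counts divided by gene length and library total gave the deposited RPKM within 7.4e-15. The authors also deposited narrowPeak lists with a linear fold enrichment and a -log10 q-value per peak, 2 or more in each. STAR 2.7.1a and 2.5.2b, HTSeq 0.9.1, featureCounts 1.6.2, BWA 0.7.16a, MACS2 2.1.1 and mm10 were used in the series, per the submitters' processing notes; the role of each tool and the strand setting are not stated in the sources used here. Single-nucleus and ChIP input samples were not used here.

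Counts were tested with edgeR 4.0.16 (R 4.3.3): TMM scaling, filterByExpr, the quasi-likelihood F-test and Benjamini-Hochberg adjustment over the 14524 and 15001 genes tested, called at 0.05. Each experiment was fitted whole, the light-pulse one with a term for the letter s in the title and the Npas4 one with its 4 groups. CPM are relative to TMM-scaled totals, errors are SD or SE, and intervals are at 95%. DESeq2 1.42.0, RLE scaling, other library terms, no filter, a replicate block, summed libraries and leaving out each library were the alternatives. Libraries of 1 number with and without the s had chi-square values over degrees of freedom of 10.1 to 29.1 and were kept apart, although they may come from 1 pool. Replicate numbers were taken to pair the libraries where every pair's deviations correlated above 0.1. That held for light against dark in wild-type littermates (r = 0.198 to 0.264) and for genotype in the dark (r = 0.205 to 0.525). The scripts were tested on simulated data. Of the called members, Abcc8 overlaps Gm51481 in RefSeq, which is not in the count tables, and Kcnh8 and Kcnj9 overlap no gene.

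The members, the gene lists and the tests were chosen with earlier results of these data known. Genes are named if called, if among the 12 highest by RPKM, if on a list of 24 SCN channel genes, or, where stated, as next below the threshold; those next below it were picked after their values were seen. One of the genes this rule names is not reported here.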

Additional observations from a re-analysis of the deposited data

Results flagged for a closer look

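Among 104 groups of 4 libraries (the named members at CT17 dark and at 0.5 h of light), 7 held a library whose gap to the others exceeded the 95% critical value of Dixon's test, and chance gives about 1 group in 20. Of these, 4 concern replicate 2 of 0.5 h, the library with the highest meningeal markers. There Kcna2 had 217.9 CPM (the other 3 libraries 276 to 279.5), Kcnc1 had 121.8 CPM (149 to 154), Kcnf1 had 26.2 CPM (19.1 to 19.8) and Kcne2 had 1.19 CPM (0.197 to 0.246). Kcnj3 had 80.0 CPM in replicate 1s of 0.5 h (77.2 to 77.7 in the others). At CT17 dark, Kcnd1 had 9.13 CPM in replicate 2 (11.4 to 11.8) and Kcnj13 had 3.19 CPM in replicate 2s (0.0749 to 0.386). Without the number 2 libraries of 0.5 h, an alternative chosen after seeing the data, 0 members were called at 0.5 h, as with them.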

How the results depend on the processing

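At 1 h the count of members called was 0 in the main analysis, 5 with the batch of the labels, 4 with same-numbered libraries summed and 15 within batch 2. At 3 h it was 1, against 10 with the batch of the labels, 0 with 3 kinds of library, 0 without the libraries with the s, 2 with DESeq2, 7 with libraries summed, 17 within batch 2 and 0 to 1 without each library. At 6 h it was 2, against 1 with the batch of the labels, 0 with 3 kinds of library, 1 without the libraries with the s, 1 with no filter, 1 within batch 2 and 0 to 1 without each library. Between CT23 and CT17 dark it was 0, and 9 within batch 2. Between 3 h and 1 h it was 1, and 0 to 1 without each library. In wild-type light against dark it was 1, and 0 to 1 without each library, and in the other comparisons of the Npas4 experiment no count moved without 1 library. Within-batch values at 6 h, at CT23 and between 3 h and 1 h were chosen after seeing the data, and a lone CT23 library is there assumed to vary like the other groups. With a replicate block the count was 3 at 3 h (Abcc8, Kcnf1 and Kcnj9), 2 in wild-type light and 4 for genotype in the dark. The block changed no other count. Not every pair passed the bound of 0.1 for light in the null (r = 0.0978 to 0.483) or for genotype after light (r = -0.0134 to 0.171). The light-pulse libraries were treated as sharing only a number. Still, 12 of 12 Npas4 and 15 of 16 light-pulse libraries correlated best with their own number. With a -log10 q of 5 or more, 38 members in place of 48 had an H3K27ac peak after light. No called member reversed its sign. The share of all genes called is not given here for DESeq2, summed libraries or the light-pulse replicate block. Those counts of members therefore cannot be set against it. The cause of the moves listed here was not tested. Depth leaves the members under 1 RPKM, at a few CPM, with wide intervals.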
